A study of Rattus norvegicus with 20 samples.

Results

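The conjugation enzymes of the liver are the glutathione transferases, the UDP-glucuronosyltransferases and the sulfotransferases, and their mRNA was measured here in rats fed tofu or casein with fish oil or soybean oil. The members were the genes whose current rat symbol begins with Gsta, Gstm, Gstp, Gstt, Gstk, Gsto, Mgst, Ugt1, Ugt2 or Sult and that are read by a probe set assigned to that gene alone. Sult1e1 kept the symbol of the array annotation, because no current symbol was found by its gene identifier. The rule took 44 of the 14217 genes measured, which were 22 glutathione transferases, 8 glucuronosyltransferases of the UGT2 family and 14 sulfotransferases. No UGT1 gene was among them, because its probe sets are shared by several Ugt1a genes. The livers came from 20 male Sprague-Dawley rats, bought at 4 weeks of age, housed singly and fed 1 of 4 diets for 21 days, with 5 rats and 5 arrays in each group. The TF diet combined tofu with fish oil, the TS diet tofu with soybean oil, the CF diet casein with fish oil, and the CS diet, the control, casein with soybean oil. Every diet held 200 g/kg protein and 150 g/kg fat, fish oil made up 50 g/kg of the TF and CF diets, and the tofu diets also contained some casein. The rats that ate most and least in each group were not put on arrays, so the arrays hold rats of average food consumption.

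Conjugation makes fat-soluble compounds easier to excrete by joining them to a polar group. Glutathione transferases add the tripeptide glutathione to electrophiles such as epoxides and the aldehydes of lipid peroxidation, glucuronosyltransferases add glucuronic acid from UDP-glucuronic acid to steroids, bilirubin and drugs, and sulfotransferases add sulfate from PAPS, the activated sulfate donor, to phenols, steroids and bile acids. In the liver many of these genes are known to be switched on by sensors of foreign compounds, among them CAR, PXR, the aryl hydrocarbon receptor and NRF2.

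Each level below is a z score, the deposited value of 1 probe set on 1 array, on a log scale on which a difference of 0.2 is a 1.41-fold difference by the study's methods. The level of one gene was compared between rats, never with that of another gene. The protein effect is the mean of the TF and TS groups minus the mean of the CF and CS groups, and the oil effect is the mean of TF and CF minus the mean of TS and CS. Differences are given with the standard error from the linear model, and a gene was called at an adjusted p under 0.05, the adjustment covering all 31039 probe sets. Of the 44 members, 33 had a mean above 0.022, the highest median of any array, which served as a background line. No fold is given where a group of the comparison averaged at or below that line.

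The arrays differed little in overall level, with medians between -0.10 and 0.022 in z and a mean correlation with the other arrays between 0.939 and 0.956. The 3 least correlated arrays were TS-7, TF-4 and TF-5, at 0.943, 0.939 and 0.939, while all others lay at 0.951 or more. All 3 are from tofu rats, so a fit without them loses rats on the tofu side alone. In 4 rats, 1 in each group (TF-3, TS-1, CF-1 and CS-1), the 5' end of the beta-actin mRNA had a low signal, at 1.30 to 1.42, while the other 16 rats lay at 1.86 to 2.13. The 3' end of the same mRNA was also lower in these 4 rats, at 2.09 to 2.2 against 2.34 to 2.62, whereas the 5' end of the Gapdh mRNA lay at 2.76 to 2.87 against 2.63 to 2.84. The hepatocyte gene Alb (albumin), with a mean of 3.57, lay above the background line. Of 5 bile duct genes measured, 3 also lay above that line, while Krt7 and Cftr, with means of -0.36 and -0.52, lay below it. As these are whole livers, fewer cells of a type cannot be told apart from less RNA per cell.

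The upstream sequences of 4 members are shown because the diet comparisons turn on these genes: Gsta4 and Sult1c2a were the members called, and Gstm7 and Gstm2 had the largest differences of the glutathione transferases above the background line. Each is the 250 bases before the annotated start of the gene on its own strand, from the RefSeq table of promoters on build GRCr8. Capitals mark the core of the antioxidant response element bound by NRF2 (TGACNNNGC), the core of the site bound by the aryl hydrocarbon receptor (GCGTG) and the CCAAT box (CCAAT), each searched on both strands. In these 4 windows no motif overlapped another.
Gsta4, chr8:87947015-87947264, plus strand: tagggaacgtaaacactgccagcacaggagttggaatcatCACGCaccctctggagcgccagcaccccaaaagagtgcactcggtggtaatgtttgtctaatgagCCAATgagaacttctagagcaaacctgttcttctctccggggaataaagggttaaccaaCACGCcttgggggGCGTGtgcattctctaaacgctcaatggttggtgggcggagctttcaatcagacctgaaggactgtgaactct
Gstm7, chr2:198260320-198260569, minus strand: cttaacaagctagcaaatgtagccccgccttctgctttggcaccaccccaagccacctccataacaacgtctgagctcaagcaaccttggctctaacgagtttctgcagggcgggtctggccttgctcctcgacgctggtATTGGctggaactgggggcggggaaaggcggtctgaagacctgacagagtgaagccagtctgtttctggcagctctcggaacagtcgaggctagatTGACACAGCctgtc
Gstm2, chr2:198316918-198317167, minus strand: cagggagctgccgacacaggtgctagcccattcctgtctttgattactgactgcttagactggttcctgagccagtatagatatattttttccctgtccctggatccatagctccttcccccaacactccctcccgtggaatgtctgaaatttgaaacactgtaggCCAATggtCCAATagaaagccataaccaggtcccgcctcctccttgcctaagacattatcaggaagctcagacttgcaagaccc
Sult1c2a, chr9:7103203-7103452, minus strand: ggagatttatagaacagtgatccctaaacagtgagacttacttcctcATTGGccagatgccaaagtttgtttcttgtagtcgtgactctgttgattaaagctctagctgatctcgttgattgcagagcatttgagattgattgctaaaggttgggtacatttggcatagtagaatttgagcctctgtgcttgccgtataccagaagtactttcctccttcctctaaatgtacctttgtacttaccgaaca
The Gsta4 window held GCGTG 3 times and CCAAT once. The Gstm7 window held TGACNNNGC once, in the last bases before the start, and CCAAT once, the Gstm2 window held CCAAT 2 times and the Sult1c2a window held it once. Among all 33469 windows of this length in the table, 10.1% held TGACNNNGC, 25.9% held GCGTG and 34% held CCAAT. Of the 37 members with a window, 4 held TGACNNNGC (10.8%), 9 held GCGTG (24.3%) and 17 held CCAAT (45.9%). Members were counted once per gene, with a match in any window of the gene, whereas the shares over the table count single windows. A match describes the letters and says nothing of whether a factor binds there.

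The question of the protein comparison was whether liver mRNA differed between tofu and casein. Among the 44 members 1 was called, Gsta4, which rose under tofu, and none fell. Over all genes 0.921% were called for the protein effect in either direction (131 of 14217), so 1 of 44 is not a result about the members as a group. The differences lay on the positive side for 35 of the 44 members (79.5%), with a median of 0.065, against 58% of all genes with a median of 0.011. By class the count was 20 of 22 glutathione transferases with a median of 0.084, 11 of 14 sulfotransferases with a median of 0.085 and 4 of 8 glucuronosyltransferases with a median of -0.00013. At an unadjusted p under 0.05 there were 13 of the 44 (29.5%), against 11.5% of all genes. These counts describe genes measured in the same rats.

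**Figure D1:**
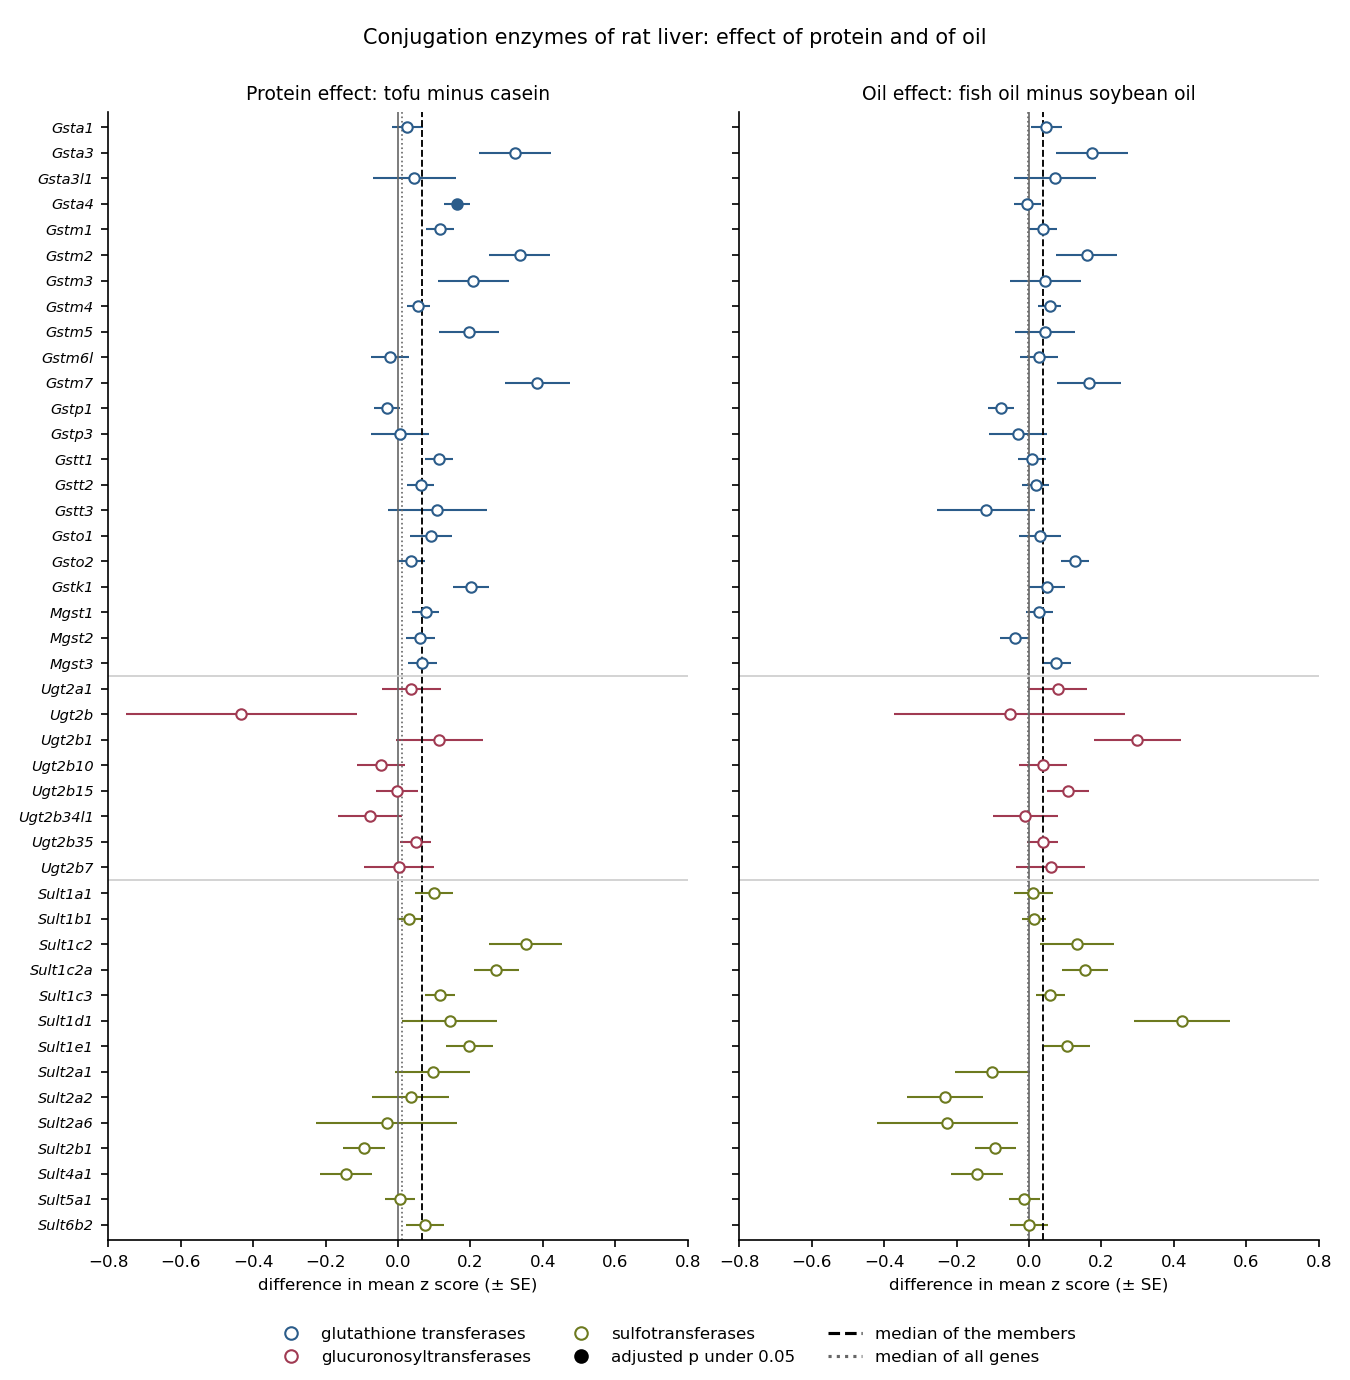
Difference in mean z score with its standard error for each of the 44 members, for tofu minus casein on the left and fish oil minus soybean oil on the right, by enzyme class. Filled points passed an adjusted p of 0.05, which only Gsta4 did and only for protein, and the dashed line, the median of the members, lies at 0.065 for protein and 0.038 for oil, right of the dotted median of all genes.

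The alpha class of glutathione transferases holds subunits that act on organic peroxides and on products of lipid peroxidation, and Gsta4 is the one known for conjugating 4-hydroxynonenal, an aldehyde from oxidized polyunsaturated fatty acids. Gsta4 (Entrez gene 300850, chromosome 8) read 1.97, 1.75, 1.82, 1.84 and 1.78 in TF livers and 1.95, 1.71, 1.82, 1.76 and 1.84 in TS livers, against 1.73, 1.65, 1.6, 1.63 and 1.62 in CF livers and 1.78, 1.66, 1.63, 1.72 and 1.58 in CS livers. Of the 10 tofu rats 7 lay above the highest casein rat, which was CS-1, and the 3 others overlapped the upper part of the casein range. The mean was 1.82 ± 0.083 under tofu and 1.66 ± 0.063 under casein (SD, n = 10 each), a difference of 0.16 ± 0.036 (SE) or 1.33-fold, with an adjusted p of 0.047. By oil it was 0.18 for TF minus CF and 0.14 for TS minus CS. In each of the 4 groups the rat with the low 5' actin value had the highest Gsta4 level. Without these 4 rats the difference was 0.15 with an adjusted p of 0.0529, which is no longer called, and with the low 5' actin value as a block, an analysis added after seeing the data, it was 0.16 with an adjusted p of 0.00312. Leaving out 1 rat at a time kept the call only without CS-1, CF-1, TS-2 or TF-4, and without any 1 of the other 16 rats the adjusted p was 0.0514 to 0.0933, while the difference stayed between 0.15 and 0.18.

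Other alpha members differed less or lay at the background. Gsta1, a main alpha subunit of rat liver, averaged 2.61 ± 0.10 under tofu and 2.59 ± 0.095 under casein (SD, n = 10 each), a difference of 0.025 ± 0.043 with an adjusted p of 0.896. Gsta3, which the reference table also lists as Yc2, the rat subunit known for conjugating the epoxide of aflatoxin, read -0.25, 0.083, -0.61, -0.25 and -0.060 in TF livers and -0.42, -0.12, -0.37, -0.21 and -0.68 in TS livers, against -0.094, -0.36, -0.70, -0.58 and -0.80 in CF livers and -0.44, -0.73, -0.72, -0.72 and -0.95 in CS livers. All but 1 of these readings are negative, so its difference of 0.32 ± 0.10 (adjusted p = 0.214) lies below the background line. Gsta3l1, also below that line, differed by 0.045 ± 0.11.

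The mu class showed the largest positive differences of the glutathione transferases, without a call at 0.05. Its subunits conjugate epoxides, quinones and other electrophiles, and 6 of the 7 mu members were on the positive side, with a median of 0.20. Gstm7 (Entrez gene 81869, chromosome 2) read 1.75, 1.37, 1.48, 1.48 and 1.53 in TF livers and 1.86, 1.12, 1.18, 1.24 and 1.38 in TS livers, against 1.48, 0.92, 1.15, 1.05 and 1.1 in CF livers and 1.25, 0.83, 0.94, 0.99 and 0.85 in CS livers. The groups overlapped in part: 5 of 10 tofu rats lay above the highest casein rat, CF-1, and 7 of 10 casein rats lay below the lowest tofu rat, TS-2. The mean was 1.44 ± 0.24 under tofu and 1.06 ± 0.20 under casein (SD, n = 10 each), a difference of 0.38 ± 0.090 or 1.95-fold, with an adjusted p of 0.0623. By oil it was 0.38 for TF minus CF and 0.39 for TS minus CS.

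As for Gsta4, the rat with the low 5' actin value had the highest Gstm7 level of its group in all 4 groups. In those 4 rats Gstm7 read 1.75 in TF-3 and 1.86 in TS-1, against 1.48 in CF-1 and 1.25 in CS-1. In the other 16 rats the range was 1.12 to 1.53 under tofu and 0.83 to 1.15 under casein, with a difference of 0.37 and an adjusted p of 0.00336, so Gstm7 was called there. With the low 5' actin value as a block the adjusted p was 0.000255.

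Gstm2, a major mu subunit of rat liver, followed the same pattern with more spread. It read 2.96, 2.62, 2.58, 2.68 and 2.55 in TF livers and 2.86, 2.52, 2.53, 2.47 and 2.28 in TS livers, against 2.68, 1.97, 2.43, 2.3 and 2.4 in CF livers and 2.32, 1.95, 2.24, 2.29 and 2.11 in CS livers. Every TF value lay above every CS value, whereas the TS and CF values overlapped. The mean was 2.61 ± 0.19 under tofu and 2.27 ± 0.22 under casein (SD, n = 10 each), a difference of 0.34 ± 0.084 or 1.79-fold, with an adjusted p of 0.0889. It was also highest in the low 5' actin rat of all 4 groups, and its adjusted p was 0.079 without these rats and 0.0099 with the block. Gstm3 was likewise highest in those rats, with 0.95 in TF-3, 1.04 in TS-1, 0.57 in CF-1 and 0.61 in CS-1, and differed by 0.21 ± 0.10 (adjusted p = 0.484). Gstm1, the other major mu subunit, averaged 3.09 ± 0.10 under tofu and 2.98 ± 0.066 under casein (SD, n = 10 each), a difference of 0.12 ± 0.039 with an adjusted p of 0.266. Gstm5 differed by 0.20 ± 0.083 around the background line (adjusted p = 0.411), and Gstm4 and Gstm6l differed by 0.056 and -0.021.

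Several of these genes varied together from rat to rat within diets. Over the 20 rats, after removal of the diet means, the member most like Gsta4 was Gstm7 (r = 0.822), the one most like Gstm2 was Gstm7 (r = 0.772) and the one most like Gsta1 was Gsta4 (r = 0.763). Gstm1 and Mgst1 were each other's nearest member (r = 0.836). Each r is the highest of a gene with any other member, and over the 44 members this highest r ran from 0.355 (Gstm6l) to 0.836. The points share an array and the same normalization, and the 4 rats with a low 5' actin value lie at the upper end for Gsta1, Gsta4, Gstm2, Gstm3 and Gstm7 in all 4 groups. The rat with the low value was the highest of its group for 5 of the 44 members in all 4 groups and for 6 more in 3 groups. That count leaves out members for which these rats lay low. Sult2a6, for example, was lowest of its group in TF-3 (0.63), TS-1 (0.59) and CF-1 (0.49), but not in CS-1 (0.72). The same count was not made over all genes, and the part of the low value in the likeness of the members was not tested.

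**Figure D2:**
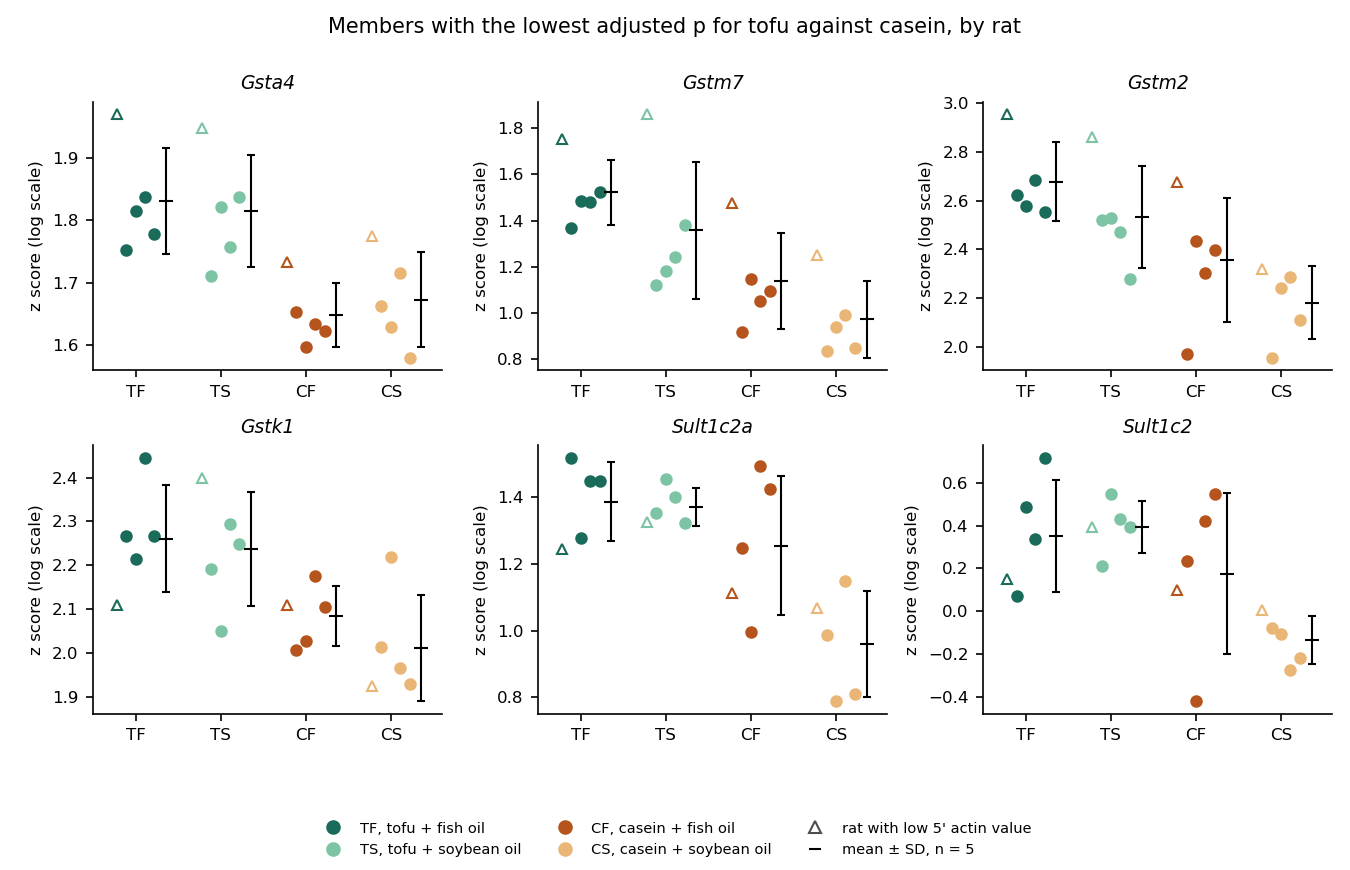
z score of each rat for the 6 members with the lowest adjusted p for tofu against casein among those with a mean above the background line, in TF, TS, CF and CS livers, with the mean and SD of each group (n = 5) beside the points and open triangles for the rats with a low 5' actin value. Gsta4, Gstm7 and Gstm2 are higher under tofu under both oils, with the triangle on top of each group, whereas the CS group is the low one for Sult1c2a and Sult1c2.

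Gstk1, singled out after its values were seen, is the kappa transferase of mitochondria and peroxisomes. It read 2.11, 2.27, 2.21, 2.45 and 2.27 in TF livers and 2.4, 2.19, 2.05, 2.29 and 2.25 in TS livers, against 2.11, 2.01, 2.03, 2.18 and 2.11 in CF livers and 1.93, 2.01, 2.22, 1.97 and 1.93 in CS livers. The 3 lowest values were CS rats and the 2 highest were TF-6 and TS-1, with 6 of 10 tofu rats above the highest casein rat, CS-5. The difference was 0.20 ± 0.050 or 1.42-fold (adjusted p = 0.0862). The low 5' actin rat was the highest of its group in 1 of 4 groups, TS.

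The remaining glutathione transferases differed by less than 0.12 between the proteins. The theta class, which acts on small halogenated compounds, had 3 of 3 members on the positive side, with Gstt1 at 0.11 ± 0.039 (adjusted p = 0.269). The 3 microsomal transferases, membrane proteins of another fold, had differences of 0.077 for Mgst1, 0.061 for Mgst2 and 0.067 for Mgst3. The omega members Gsto1 and Gsto2, which reduce dehydroascorbate and arsenic compounds, differed by 0.092 and 0.037. Gstp1, the pi transferase known as a marker of preneoplastic foci in rat liver, differed by -0.031 ± 0.036 (adjusted p = 0.824), and Gstp3 by 0.0060 ± 0.080.

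Gstt3 varied most between rats of the same diet among the glutathione transferases. It read 1.31, 1.44, 1.33, 1.44 and 1.26 in TF livers and 1.59, 1.49, 2.23, 1.84 and 1.36 in TS livers, against 1.3, 1.83, 1.26, 1.04 and 1.93 in CF livers and 1.14, 1.57, 1.12, 1.05 and 1.95 in CS livers. The highest values occurred in TS-4, TS-5, CF-2, CF-7 and CS-7 and the diets overlapped, with an interaction of -0.45 ± 0.27 that was not called (adjusted p = 1).

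Among the sulfotransferases the SULT1 family had all 7 members on the positive side for tofu, with a median of 0.14, whereas the SULT2 family had 2 of 4, with a median of 0.0015. None was called for the protein effect. The SULT1C members are known in rat liver for the sulfation of phenols and of N-hydroxy arylamines. Sult1c2a (Entrez gene 316153, chromosome 9) read 1.24, 1.52, 1.28, 1.45 and 1.45 in TF livers and 1.32, 1.35, 1.46, 1.4 and 1.32 in TS livers, against 1.11, 1.25, 0.99, 1.49 and 1.42 in CF livers and 1.07, 0.99, 0.79, 1.15 and 0.81 in CS livers. All 5 CS values lay below all TF and TS values, CF-1 and CF-5 lay among the CS values, and the other CF rats lay among the tofu rats. The protein difference was 0.27 ± 0.063 or 1.6-fold (adjusted p = 0.0623).

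Set against the CS diet alone, Sult1c2a rose in TF livers, the only call of a member in the comparisons of single diets. Its mean was 1.39 ± 0.12 in TF livers and 0.96 ± 0.16 in CS livers (SD, n = 5 each), a difference of 0.43 ± 0.089 or 2.09-fold, with an adjusted p of 0.0366. For this comparison 0.753% of all genes were called. TS minus CS was 0.41 (adjusted p = 0.146) and CF minus CS was 0.29 (adjusted p = 0.935), and these comparisons share the CS rats. Leaving out 1 rat at a time lost the call without CS-2, CS-5, CS-7, TS-2, TF-4, TF-6 or TF-7, with an adjusted p of up to 0.107 (without CS-5). It was also lost without the 4 rats with a low 5' actin value, with a difference of 0.49 and an adjusted p of 0.0675. Among all genes 0.106% were called for TS minus CS, 0.0844% for CF minus CS, 0.0985% for TF minus CF and 0.134% for TF minus TS, and 0 of the 44 members were called in any of these 4.

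Sult1c2, a gene of the same family and chromosome, had the same low group at a level near the background line. It read 0.15, 0.070, 0.49, 0.34 and 0.72 in TF livers and 0.39, 0.21, 0.55, 0.43 and 0.39 in TS livers, against 0.10, 0.23, -0.42, 0.42 and 0.55 in CF livers and 0.0050, -0.079, -0.10, -0.27 and -0.22 in CS livers. All 5 CS values lay below all 5 TS values and all 5 TF values, and CF-5 was the lowest of all. The difference was 0.35 ± 0.10 (adjusted p = 0.169), with no fold because the casein mean lay at the line. Sult1c2a and Sult1c2 are close relatives, and 1 further probe set is assigned to Sult1c2 and an older name of Sult1c2a together, so part of a signal may be shared.

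Sult1e1, the estrogen sulfotransferase, read 3.01, 2.75, 2.78, 2.92 and 2.84 in TF livers and 2.63, 2.89, 2.86, 2.81 and 2.59 in TS livers, against 2.36, 2.89, 2.61, 2.87 and 2.6 in CF livers and 2.43, 2.58, 2.55, 2.71 and 2.52 in CS livers. The diets overlapped, with 3 of 10 tofu rats above the highest casein rat, and the difference was 0.20 ± 0.064 or 1.41-fold (adjusted p = 0.236). Sult1c3, which the reference table also lists as ST1C1, the rat enzyme that activates N-hydroxy arylamines, differed by 0.12 ± 0.041 (adjusted p = 0.299). Sult1a1, the main phenol sulfotransferase, differed by 0.10 ± 0.053 and Sult1b1, which acts on thyroid hormones, by 0.031 ± 0.033. Both differences are smaller than the SD between rats of either protein.

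The SULT2A genes, sulfotransferases of hydroxysteroids and bile acids that are more active in female than in male rats, showed wide spread. Sult2a6 read 0.63, 0.73, 1.36, 0.64 and 0.65 in TF livers and 0.59, 0.81, 1.1, 2.01 and 0.73 in TS livers, against 0.49, 1.37, 0.63, 1.12 and 0.65 in CF livers and 0.72, 1.86, 0.41, 1.28 and 1.03 in CS livers. Values above 1.2 occurred in TF-5, TS-5, CF-2, CS-2 and CS-6, that is in every diet, and the protein difference was -0.032 ± 0.19. Its SD within diets was 0.47, larger than that of 99.5% of all genes. Sult2a1 and Sult2a2 lay below the background line, and Sult4a1, a brain sulfotransferase, had 2 CS rats at 0.48 with all other rats at 0.11 or lower and a difference of -0.14 ± 0.072 (adjusted p = 0.521).

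None of the 8 glucuronosyltransferases was called for protein, with adjusted p of 0.694 or more, and 1 of them stood out for its spread between rats. Ugt2b, which the reference table also lists as Ugt2b2, is the rat enzyme that glucuronidates androsterone, and an inherited lack of that enzyme is known in Wistar rats. It read 2.56, -0.011, 2.49, 2.6 and 2.54 in TF livers and 2.83, 0.45, 2.76, 2.5 and 2.61 in TS livers, against 2.86, 2.67, 2.34, 2.52 and 2.65 in CF livers and 2.72, 2.53, 2.51, 2.53 and 2.32 in CS livers. The low rats were TF-4 and TS-2, while the other 18 lay between 2.32 and 2.86. The second probe set of this gene read 0.70, -0.43, 0.66, 0.69 and 0.71 in TF livers and 1.3, -0.34, 1.38, 0.61 and 1.35 in TS livers, against 1.37, 0.84, 0.35, 0.62 and 1.05 in CF livers and 1.42, 0.60, 0.60, 0.77 and 0.27 in CS livers. TF-4 and TS-2 were again the lowest of the 20. The protein difference of the first probe set was -0.43 ± 0.32 (adjusted p = 0.694) and was not called.

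For the other UGT2B genes in the plot by rat, all on the same chromosome, 14, TF-4 and TS-2 lay inside the range of the other rats. For Ugt2b15, which the table also lists as UGT2B3 and which conjugates testosterone, TF-4 read 2.09 and TS-2 2.3, in a range of 1.86 to 2.39 over all rats. For Ugt2b35 they read 2.49 and 2.52, in a range of 2.3 to 2.63, and for Ugt2b10 1.75 and 1.62, in a range of 1.24 to 1.78. The SD of Ugt2b within diets, 0.77, stood at percentile 100 of all genes. Ugt2a1, an enzyme of the olfactory epithelium, differed by 0.037 ± 0.081 for protein, and Ugt2b7 and Ugt2b34l1, both below the background line, by 0.0027 and -0.077.

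**Figure D3:**
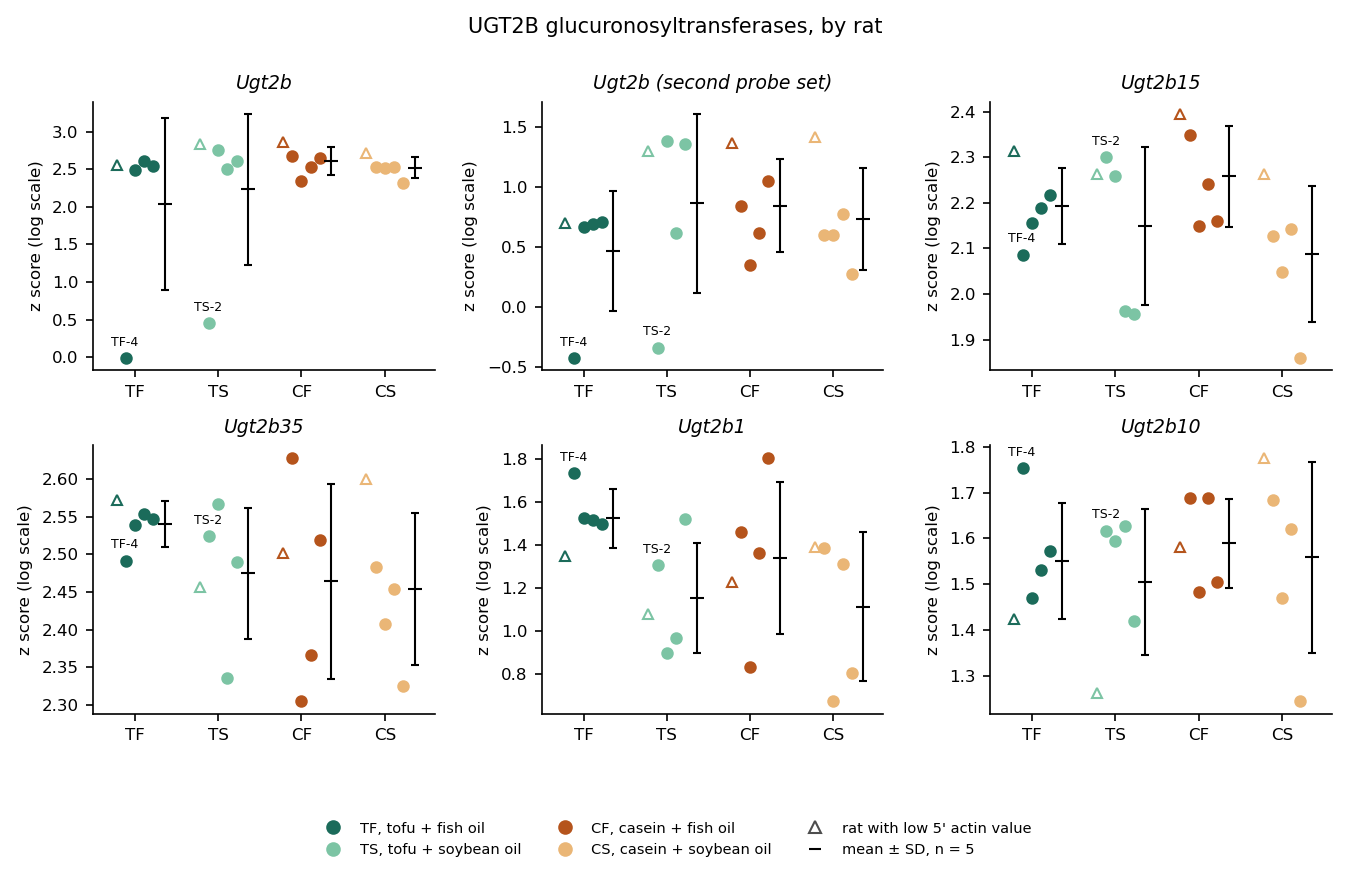
z score of each rat for both probe sets of Ugt2b and for Ugt2b15, Ugt2b35, Ugt2b1 and Ugt2b10 in TF, TS, CF and CS livers, with the mean and SD of each group (n = 5) and open triangles for the rats with a low 5' actin value. Rats TF-4 and TS-2 are marked and lie far below all others for both Ugt2b probe sets, but inside the range of the other rats for the remaining genes.

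The question of the oil comparison was whether fish oil changed liver mRNA relative to soybean oil. No member was called in either direction, while 0.302% of all genes were (43 of 14217). The differences were on the positive side for 31 of 44 members (70.5%), with a median of 0.038, against 48.2% of all genes with a median of -0.0018. All 7 mu members and all 7 SULT1 members were on the positive side, with medians of 0.045 and 0.11, and all 4 SULT2 members were on the negative side, with a median of -0.16. At an unadjusted p under 0.05 there were 6 of the 44 (13.6%), against 5.55% of all genes.

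Gsto2, an omega transferase, had the lowest adjusted p of the members for oil. It read 0.073, 0.29, 0.076, 0.045 and 0.16 in TF livers and -0.0093, -0.030, 0.18, 0.16 and -0.038 in CF livers, against -0.034, -0.15, -0.047, 0.018 and 0.022 in TS livers and -0.054, -0.072, 0.038, -0.049 and -0.036 in CS livers. The highest values were fish oil rats, 7 of 10 of them above the highest soybean oil rat, but the means, 0.090 ± 0.11 under fish oil and -0.036 ± 0.053 under soybean oil (SD, n = 10 each), lie on either side of the background line, and the difference of 0.13 ± 0.039 had an adjusted p of 0.513. Ugt2b1, which is known to glucuronidate morphine and to be induced by phenobarbital in rats, read 1.35, 1.73, 1.53, 1.52 and 1.5 in TF livers and 1.23, 1.46, 0.83, 1.36 and 1.81 in CF livers, against 1.08, 1.3, 0.90, 0.97 and 1.52 in TS livers and 1.39, 1.39, 0.67, 1.31 and 0.80 in CS livers. The TF rats lay close together and the other diets spread widely, with means of 1.43 ± 0.27 under fish oil and 1.13 ± 0.29 under soybean oil (SD, n = 10 each) and a difference of 0.30 ± 0.12 or 1.68-fold (adjusted p = 0.782).

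Sult1d1, known in the mouse for the sulfation of catecholamines, had the largest oil difference, 0.42 ± 0.13 (adjusted p = 0.541), at readings of -1.68 to -0.093 that all lie below the background line. Gsta4, the member called for protein, differed by -0.0043 ± 0.036 between the oils. Gstm7 and Gstm2 differed by 0.17 ± 0.090 (adjusted p = 0.94) and 0.16 ± 0.084 (adjusted p = 0.933). Among the SULT2A genes Sult2a2 and Sult2a6 each differed by -0.23, with standard errors of 0.11 and 0.19.

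**Figure D4:**
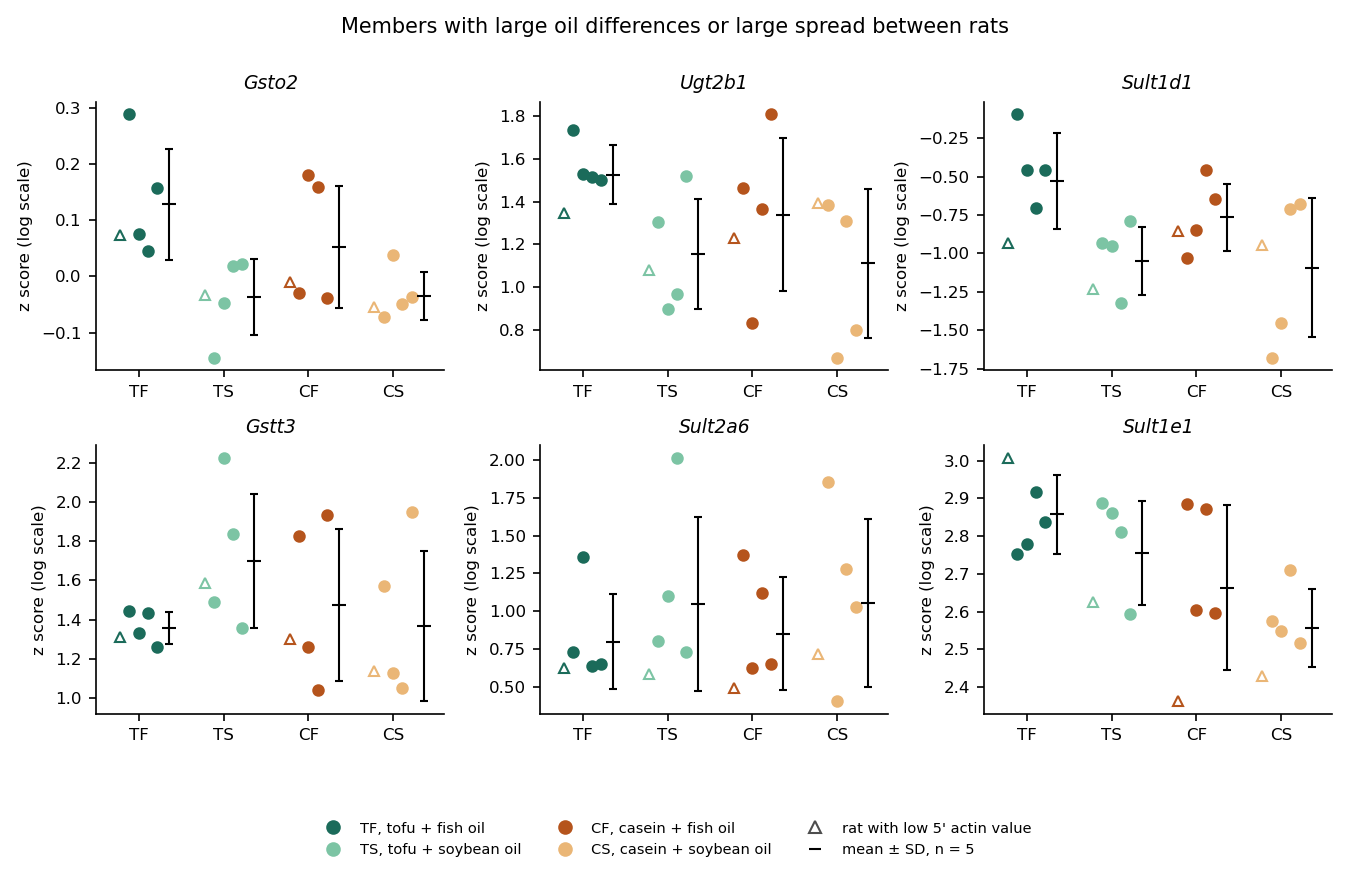
z score of each rat for Gsto2, Ugt2b1, Sult1d1, Gstt3, Sult2a6 and Sult1e1 in TF, TS, CF and CS livers, with the mean and SD of each group (n = 5) and open triangles for the rats with a low 5' actin value. The oil differences of Gsto2, Ugt2b1 and Sult1d1 have overlapping groups, and Gstt3 and Sult2a6 have high rats in 3 or 4 of the diets.

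The interaction asks whether the effect of fish oil differed between the proteins. No gene of the array was called for it (0%), and so no member was, at a median standard error of 0.121 for a member, against 0.0605 for a main effect. By limma 1 of the 44 members had an unadjusted p under 0.05 (2.27%), against 2.53% of all genes, and that was Sult1c2a, singled out after its values were seen, with -0.28 ± 0.13. Its oil difference was 0.016 under tofu (TF minus TS) and 0.29 under casein (CF minus CS).

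The genes that supply the cofactors of conjugation were examined beside the enzymes. These and the other lists of related genes were chosen with earlier results of these data known. Over all genes 0.921% were called for the protein effect, the share to set beside each count of called genes below. For UDP-glucuronic acid 1 of 4 genes was called and rose under tofu, Ugp2, which makes UDP-glucose. Ugp2 read 1.92, 2.0, 1.97, 2.11 and 2.23 in TF livers and 2.14, 2.31, 2.14, 2.06 and 2.11 in TS livers, against 1.83, 1.95, 1.62, 1.73 and 1.85 in CF livers and 1.81, 1.9, 1.95, 1.94 and 1.61 in CS livers. Of the 10 tofu rats 9 lay above the highest casein rat, and the difference was 0.28 ± 0.054 or 1.63-fold (adjusted p = 0.0168). Ugdh, which oxidizes UDP-glucose to UDP-glucuronic acid, differed by 0.10 ± 0.039 (adjusted p = 0.361). For PAPS 1 of 6 genes was called, Papss2, a PAPS synthase, with a difference of 0.21 ± 0.045 or 1.43-fold (adjusted p = 0.0422). Papss2 read 1.91, 1.68, 1.67, 1.86 and 1.73 in TF livers and 1.89, 1.82, 2.0, 1.98 and 1.95 in TS livers, against 1.64, 1.74, 1.44, 1.65 and 1.82 in CF livers and 1.59, 1.56, 1.67, 1.63 and 1.68 in CS livers. The TS rats were the high group and the TF rats overlapped the CF rats, with 0.11 for TF minus CF and 0.30 for TS minus CS. Without the 4 rats with a low 5' actin value neither was called, with adjusted p of 0.079 for Ugp2 and 0.191 for Papss2. The differences were then 0.30 for Ugp2 and 0.19 for Papss2, and all 8 tofu rats left lay above every casein rat for Ugp2. With the low 5' actin value as a block both stayed called, with adjusted p of 0.0183 and 0.0454.

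Of 13 genes that make, recycle and break down glutathione limma called 0, with 6 on the positive side and a median of -0.0033, and 3 had an unadjusted p under 0.05. Gclm, the modifier subunit of the enzyme that limits glutathione synthesis, differed by 0.14 ± 0.040 (adjusted p = 0.17) and its catalytic partner Gclc by -0.049 ± 0.044. Of 7 efflux transporters of conjugates 0 were called, with a lowest adjusted p of 0.535. Abcc2, the main export pump for conjugates into bile, differed by -0.014 ± 0.050.

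Among the sensors of foreign compounds and bile acids 1 of 11 was called, Nr1i3, which encodes CAR. It read 0.78, 1.06, 0.81, 0.86 and 0.84 in TF livers and 0.84, 0.75, 0.81, 0.48 and 0.70 in TS livers, against 0.60, 0.52, 0.71, 0.24 and 0.65 in CF livers and 0.37, -0.048, 0.35, 0.29 and 0.066 in CS livers. The CS group was lowest, 8 of 10 tofu rats lay above the highest casein rat, and the difference was 0.42 ± 0.068 or 2.06-fold (adjusted p = 0.00551). The sensors PXR (Nr1i2) and NRF2 (Nfe2l2) differed by 0.041 and 0.029. The aryl hydrocarbon receptor (Ahr), with a mean of -0.39 below the background line, differed by 0.036. Of 13 oxidizing enzymes and other known targets of the sensors 3 were called and all 3 rose. Cyp2b1 and Cyp2b2, also on this list, were not among the genes measured. The median over this list was 0.22, against 0.011 over all genes. The called genes were Cyp1a2, a target of the aryl hydrocarbon receptor (0.43 ± 0.076, adjusted p = 0.00924), Nqo1, a quinone reductase and target of NRF2 (0.40 ± 0.067, adjusted p = 0.00632), and Cyp3a23-3a1, a target of PXR and CAR (0.24 ± 0.054, adjusted p = 0.0492). Nqo1 read 1.16, 1.35, 1.46, 1.22 and 1.13 in TF livers and 1.45, 1.43, 1.56, 1.66 and 1.3 in TS livers, against 1.24, 1.18, 1.32, 1.09 and 1.31 in CF livers and 0.83, 0.82, 0.32, 0.82 and 0.79 in CS livers. The CS rats were all below every other rat and the TF and CF rats overlapped. TF minus CF was 0.035 (adjusted p = 0.974) and TS minus CS was 0.77 (adjusted p = 0.00115), so the averaged difference of Nqo1 came mostly from the soybean oil groups, and the interaction was -0.73 ± 0.13 (adjusted p = 0.484). Without the 4 rats with a low 5' actin value Cyp1a2 and Cyp3a23-3a1 were not called, with differences of 0.42 and 0.22 and adjusted p of 0.0657 and 0.225.

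Outside the 3 enzyme classes, Nat8, which acetylates cysteine conjugates in the last step of mercapturic acid formation from glutathione conjugates, was the called gene of 8 other conjugating enzymes. It read 1.07, 1.74, 1.38, 1.3 and 1.06 in TF livers and 1.44, 1.11, 1.65, 1.3 and 1.19 in TS livers, against 0.88, 0.78, 0.97, 0.76 and 0.71 in CF livers and 0.97, 0.51, 1.0, 0.76 and 0.77 in CS livers. Every tofu rat lay above every casein rat, with means of 1.32 ± 0.24 under tofu and 0.81 ± 0.15 under casein (SD, n = 10 each) and a difference of 0.51 ± 0.088 or 2.43-fold (adjusted p = 0.00842). Over all genes 21 of 14217 had tofu and casein rats that did not overlap, and 0 of the conjugation enzymes did. Inmt, a methyltransferase of indole amines, had the largest difference of that list, 0.67 ± 0.16, without a call (adjusted p = 0.067). By oil it was 1.08 for TF minus CF (adjusted p = 0.0958) and 0.25 for TS minus CS (adjusted p = 0.885). Of 5 hydrolases 1 was called, Ces1d, a carboxylesterase that splits esters rather than glucuronides or sulfates, with 0.34 ± 0.046 (adjusted p = 0.000887). None of the 7 related transferases outside the prefixes was called. Of 5 liver genes known to differ between male and female rats 0 were called for protein, with a lowest adjusted p of 0.0716. None of these related genes was called for oil.

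**Figure D5:**
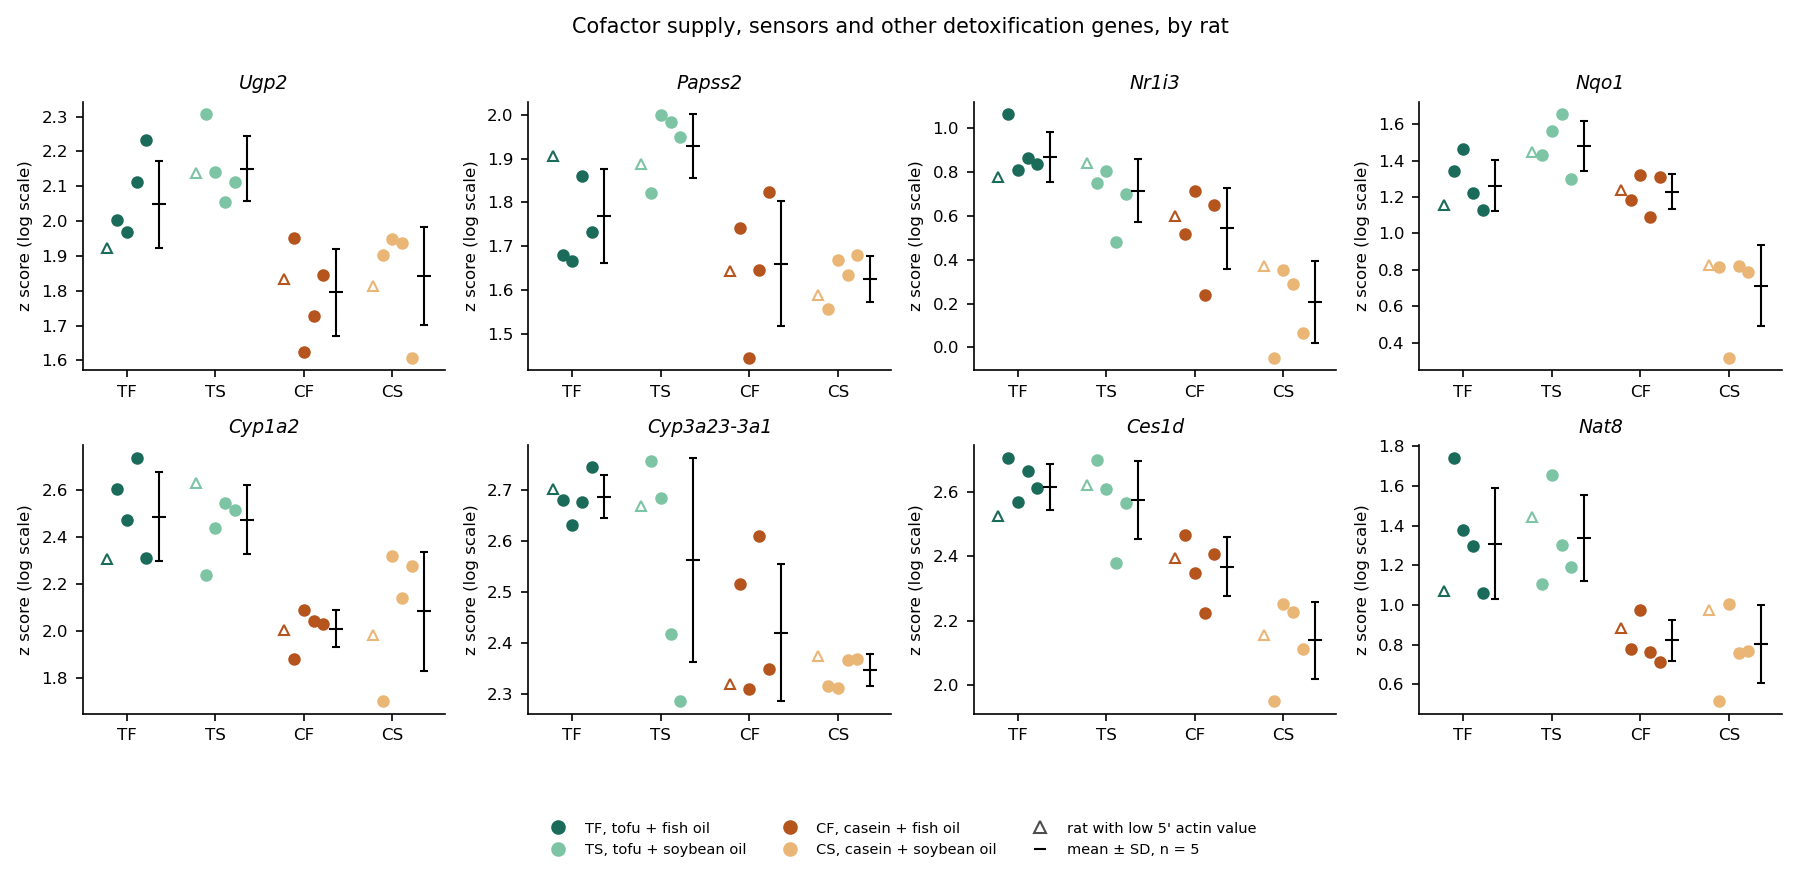
z score of each rat for the 8 genes of cofactor supply, sensing and other detoxification that were called for tofu against casein, in TF, TS, CF and CS livers, with the mean and SD of each group (n = 5) and open triangles for the rats with a low 5' actin value. All 8 are higher under tofu on average over the oils, Nqo1 mostly under soybean oil (TS minus CS 0.77, TF minus CF 0.035), and Nat8 is the one whose tofu and casein rats do not overlap.

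Markers of other liver cells were read beside these results. All 5 endothelial markers were on the positive side for tofu, with a median of 0.067 and a lowest adjusted p of 0.0635 (Stab2), and their summed z ranged from 5.44 to 5.99 in TF livers, 5.56 to 6.14 in TS livers, 5.11 to 5.56 in CF livers and 5.01 to 5.59 in CS livers. The summed z of 6 hepatocyte markers ranged from 17.4 to 18.3 in TF livers, 17.4 to 18.4 in TS livers, 17.1 to 18 in CF livers and 17.1 to 17.8 in CS livers, and none of them was called. Of 6 stellate cell markers only Rgs5 was called, with 0.28 ± 0.052 around the background line (adjusted p = 0.0151). On the positive side were 4 of these 6 markers, with a median of 0.025. The summed z of the stellate cell markers ranged from 3.45 to 3.8 in TF livers and 3.85 to 4.42 in TS livers. In CF livers it ranged from 3.18 to 3.68 and in CS livers from 3.25 to 3.88. The TS range thus lay above those of TF and CF and overlapped the top of the CS range. All 5 Kupffer cell markers were on the positive side, with a median of 0.043, and all 4 proliferation markers on the negative side, with a median of -0.15, and none of these was called (lowest adjusted p 0.665 and 0.561). Their summed z overlapped between the diets, with 4.05 to 5.18 in TF livers, 4.32 to 5.67 in TS livers, 4.34 to 4.73 in CF livers and 3.98 to 5.17 in CS livers for Kupffer cells, and -0.85 to 0.73 in TF livers, -0.55 to 0.62 in TS livers, -1.23 to 0.75 in CF livers and 0.070 to 2.51 in CS livers for proliferation. The part of these cells in the differences between tofu and casein was not tested.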

How the data were processed

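Liver RNA of 20 rats was hybridised to Affymetrix whole-genome rat arrays, 1 array per rat. Per the methods, the authors normalized the raw signals with the SuperNORM service and deposited 1 z score per probe set and array, a score on a log scale. Treatment of background and the software version are not given in the sources used here.

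The 57 control probe sets among the 31099 on the array were dropped, and 31039 with 3 or more values per group entered the fit. Symbols came from the platform annotation, updated by gene identifier to the RefSeq table of GRCr8 (20757 of 20825 probe sets with 1 symbol had an identifier in it). Where a gene had several probe sets, the one with the highest mean z stood for it. A fold is the square root of 2 for each 0.2 in z. Group means were fitted with limma 3.58.1 in R 4.3.3 without covariates, with Benjamini-Hochberg adjustment over all probe sets, and the workflow was tested on simulated data. The labels separate the samples by rat, so p-values measure the spread between rats. Precision is limited by the 20 arrays.

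The members, the lists and the rule for named genes were chosen with earlier results of these data known. Named were the members called, those with the 5 highest means in each class, those with the 4 largest protein and oil differences and the largest interaction, and from each related list the genes called and the largest differences. Tried as alternatives were scaling of each array by its median and interquartile range, quantile normalization, a fit of bright probe sets alone, a block for the rat number, no moderation, robust estimation with a variance trend, weights for arrays, averages of a gene's probe sets, fits of the 2 groups compared, and leaving out each rat, the 4 rats with a low 5' actin value or the 3 least correlated arrays. Probe sets shared by several genes were not used for members.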

Additional observations from a re-analysis of the deposited data

Results flagged for a closer look

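In 6 of 116 groups of 5 rats, from 29 named members, 1 rat lay far from the other 4, where chance gives about 1 in 20 groups. For Ugt2b the rat TF-4 read -0.011, against 2.49 to 2.6 in the other TF rats, and TS-2 read 0.45, against 2.5 to 2.83 in the other TS rats. For Sult2a6, TF-5 read 1.36, against 0.63 to 0.73 in the other TF rats. For Sult1b1, TS-2 read 2.25, against 2.4 to 2.45 in the other TS rats, and for Mgst1, CF-7 read 3.14, against 3.25 to 3.29 in the other CF rats. For Gsta1, TS-1, a rat with a low 5' actin value, read 2.74, against 2.55 to 2.59 in the other TS rats.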

How the results depend on the processing

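Of the 44 members, 1 was called for the protein effect. The count was 0 after quantile normalization and 0 without the 3 least correlated arrays, 2 after scaling to the same median and interquartile range, 5 among bright probe sets only, 4 with a variance trend and robust estimation, 3 with array weights, and 3 with the low 5' actin value as a block, which was added after seeing the data. Leaving out each rat in turn gave 0 to 3. The count for single diet comparisons, 1, was 3 after the scaling, 4 among bright probe sets, 0 without moderation, 2 with the variance trend, 2 with array weights, 6 with the actin block and 2 in fits of only the groups compared, and 0 to 2 without 1 rat. For the oil effect and for the interaction the count was 0 under every alternative run, and 0 to 0 without 1 rat. Gsta4 was called for protein in 8 of 11 alternatives (adjusted p 0.00312 to 0.104) and Gstm7 in 6 of 11 (0.000255 to 0.138), and Sult1c2a for TF minus CS in 7 of 12 (0.0106 to 0.16), not with the replicate block (0.0917), without moderation (0.0557), in the fit of only the groups compared (0.101), without the 4 rats with a low 5' actin value (0.0675) or without the 3 least correlated arrays (0.16). Uncalled differences changed sign while moving by more than 1 standard error for Sult2a2 (protein, -0.11), Ugt2a1 (protein, -0.060, and oil, -0.036) without the 3 least correlated arrays, and for Ugt2b10 (protein, 0.025) without the 4 rats with a low 5' actin value.

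Of the 9 related or marker genes called for protein, some lost the call. Without the 3 least correlated arrays these were Ugp2 (adjusted p 0.0562), Papss2 (0.0612), Cyp1a2 (0.0779) and Rgs5 (0.113), with the rat number as a replicate block Papss2 (0.222), Nr1i3 (0.0638), Cyp3a23-3a1 (0.157) and Nqo1 (0.0991), and with the actin block Cyp3a23-3a1 (0.0555).

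With the rat number as a replicate block the protein count was 2, and that for single diets 3. Deviations from the group means correlated at -0.098 to 0.13 in 22 pairs with the same number, with a median of 0.037 and 1 pair over 0.1. In the 128 other pairs they correlated at -0.12 to 0.22, with a median of -0.0080 and 8 pairs over 0.1. Of the low 5' actin rats, CS-1, CF-1 and TS-1 share a number and TF-3 does not. Whether the numbers mark a pairing or a batch was not tested. With the number as a block, Gstm7 had an adjusted p of 0.000768 for protein by limma. Brightness limits Gsta3, Sult1c2, Sult1d1 and Gsto2, which lie near or below the background line.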

Other observations

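Probe sets shared by several genes lie outside the rule. The Ugt1a locus, whose enzymes glucuronidate bilirubin and phenols, was read by 2 probe sets assigned to 8 Ugt1a genes at once, with mean z of 2.42 and 1.86 over the 20 rats and differences for tofu minus casein of 0.17 (adjusted p = 0.0914, limma) and 0.22 (adjusted p = 0.219). A probe set assigned to Gsta5 and Gsta2 together had a mean of 2.75 and a difference of 0.19 (adjusted p = 0.134). The probe set assigned to Sult1c2 and RGD1562392 together had a mean of 0.098 and a difference of 0.22 (adjusted p = 0.405). None of the 4 was called.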
